A study of Homo sapiens with 6 samples.

Results

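TMEM222 is a protein-coding gene on chromosome 1 whose product spans a membrane. The transcripts that GENCODE release 44 assigns to TMEM222 (ENSG00000186501.15, chr1:27322145-27336400 on the plus strand of hg38, the GRCh38 build) were collected by gene, and all 11 annotated transcripts were present among the 251612 matched transcripts of the data. They were grouped by whether they contain the alternative exon at chr1:27330985-27331137 and by their annotated type. Of the 11 transcripts, 2 carry the exon, 7 splice across it and 2 begin downstream of it.

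RNA was measured in K562 cells, a human erythroleukemia line, after knockdown (KD) of the poly C-binding protein PCBP1. Lentiviral particles, given overnight in 8 µg/mL polybrene, delivered a pLKO.1 plasmid that encodes an shRNA, a short hairpin that silences the mRNA it matches. In shPCBP1 the target was PCBP1, and in shCtrl it was luciferase, a gene that human cells do not have. Both groups were then kept in 3 µg/mL puromycin for 4 days before poly-A RNA was collected, with 3 libraries in each group. Each group rests on 1 hairpin construct in 1 cell line, and nothing in the sources used here says whether the libraries of a group came from separate cultures, so the p-values measure only the spread between these libraries, which may be technical.

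Alternative splicing (AS) of a skipped exon (SE) yields one mRNA that contains the exon and one that lacks it, and the share of the first is the percent spliced in (PSI). Exons are recognised through the splice sites at their edges and a pyrimidine-rich stretch ahead of the 3′ splice site, and PCBP1 binds C-rich RNA, including such stretches. When an included exon brings an early stop codon that lies well upstream of a later exon junction, the mRNA can be degraded by nonsense-mediated decay (NMD), a surveillance pathway in which the helicase UPF1 and the exon junction complex take part.

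The alternative exon of TMEM222 is 153 bases long, or 51 codons, so its length does not shift the reading frame, but it holds a stop codon. It is inserted after codon 93 of the long coding form and after codon 60 of a shorter form that starts downstream. The first in-frame stop, TAA, is the 13th codon of the exon (chr1:27331021-27331023), and it is the only one, so that 12 codons are read from the exon before translation ends. Both transcripts that carry the exon are annotated as NMD targets, with 374 bases of mRNA between the stop and the last exon junction in TMEM222-202 and 462 bases in TMEM222-208. The sequences below show the junction that is made when the exon is skipped or included. All were read from the plus strand of hg38. In the first, capitals mark the last codon of the exon before (chr1:27330775-27330804). In the second (chr1:27330935-27331023), capitals mark the AG of the 3′ splice site and the stop codon of the alternative exon. In the third (chr1:27332020-27332101), they mark the AG ahead of the exon after.
End of the exon before: cgggacttcgcgggcccctactttgtcTCA
Alternative exon with the end of its upstream intron: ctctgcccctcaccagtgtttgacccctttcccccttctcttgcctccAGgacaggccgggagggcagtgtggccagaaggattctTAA
Exon after with the end of its upstream intron: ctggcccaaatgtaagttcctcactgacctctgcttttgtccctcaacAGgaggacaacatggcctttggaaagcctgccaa

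The intron ahead of the alternative exon is short, at 180 bases, and the intron behind it spans 932 bases. The last 50 bases of the upstream intron were 48% C and 80% C or T, against 34% C and 64% C or T ahead of the exon after. Over the 32662 annotated cassette exons with a window of this size, the median C content was 22%, and 2.63% of the windows held at least as much C as that of TMEM222. The motif CCCC, read on the transcribed strand, occurs in the window of TMEM222 and in 19.3% of all windows. GGGG, the same letters on the other strand, occurs in 8.59% of all windows and is not in that of TMEM222. Neither motif is in the window of the exon after. The donor sites, with the first intron bases GT in capitals and 3 exon bases ahead of them, also differed.
Donor of the alternative exon: aagGTggga
Donor of the exon before: tcaGTgagt
The first lies at chr1:27331135-27331143 and the second at chr1:27330802-27330810. These letters are a description of the window, and binding of PCBP1 to it was not measured here.

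The transcripts also differ at their starts. TMEM222-201, with 208 codons, is translated from the first of the following start codons (window chr1:27322188-27322210), and TMEM222-210, with 175 codons, from the second (window chr1:27322287-27322309). ATG is in capitals. The second lies 99 bases, or 33 codons, downstream in the same frame.
Start codon of TMEM222-201: cgcgcgccgcATGgcggaagcgg
Start codon of TMEM222-210: cgagacggacATGaagcaatatc

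**Figure D1:**
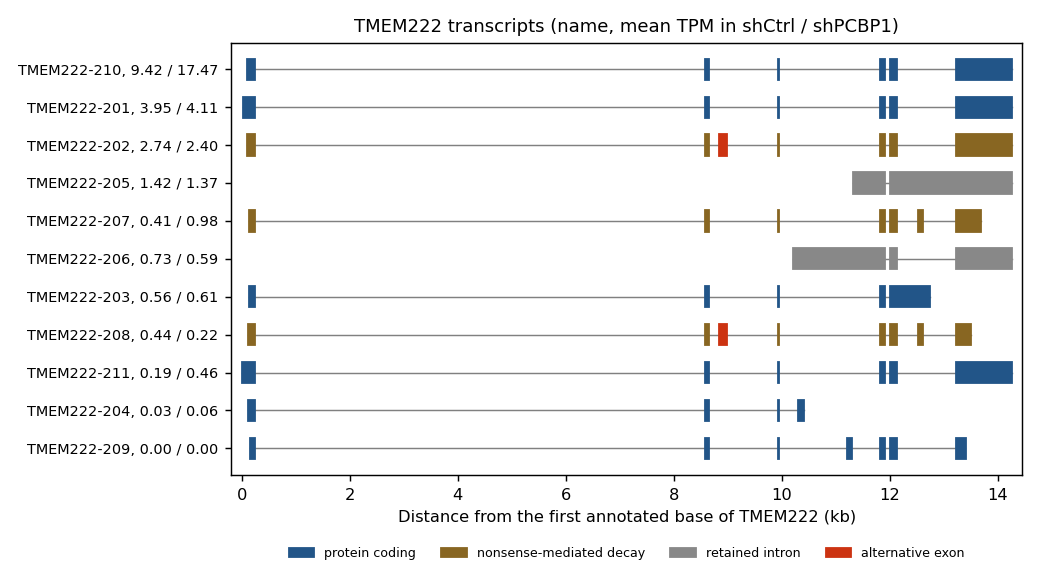
Exons (boxes) and introns (lines) of the 11 TMEM222 transcripts, against distance from the first annotated base in kb, coloured by annotated type with the alternative exon in red. The numbers beside each name are the mean TPM, a relative level scaled by transcript length, in shCtrl and in shPCBP1, and TMEM222-210 stands out with 9.42 and 17.47.

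Libraries held between 67066747 and 140522444 estimated counts, and the deepest 2 were both shCtrl. Every pair of libraries within a group differed beyond counting error (chi-square over its degrees of freedom from 6.48 to 16.4), and none was merged. PCBP1 normalized counts were 40566, 38409 and 37799 in shCtrl and 6625, 7277 and 7221 in shPCBP1, a ratio of 0.181 between the group means. Of 9 K562 markers such as GATA1 and the embryonic and fetal globins, none was at 0, 3 rose and 0 fell, with a summed level of 28960 to 34780 TPM in shCtrl and 33160 to 34590 in shPCBP1. Of 7 markers of lymphocytes and fibroblasts, 2 fell (COL1A1 and COL1A2), and the summed level was 10.06 to 11.37 TPM in shCtrl and 6.107 to 7.682 in shPCBP1. CD3E, CD79A and MS4A1, found in lymphocytes, were each under 0.3 TPM in every library. Over all genes tested, 17.7% were called higher and 13.5% lower in shPCBP1, and nothing is read from the marker counts. The part of these markers in the results on TMEM222 was not tested.

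First, the total output of TMEM222 was examined. TMEM222 mRNA was more abundant after PCBP1 KD. Its normalized counts were 2477, 2065 and 2628 in shCtrl and 3687, 3168 and 3142 in shPCBP1. Every shPCBP1 library lay above every shCtrl library. The mean went from 2390 ± 291 to 3332 ± 307 (SD, n = 3), a ratio of 1.39. The log2 fold change was 0.48 (SE 0.0875), with a DESeq2 adjusted p of 7.09e-07 (Wald test, two-sided). In this fit 17.7% of the 17095 genes tested were called higher and 13.5% lower at an adjusted p under 0.05, so that a call in the same direction was common among all genes. The rise did not reach the fold threshold of the study, a log2 fold change of 1. Transcripts that skip the alternative exon held 14.5 of 19.9 mean TPM in shCtrl and 23.7 of 28.3 in shPCBP1. They are a term of the share by which the study picked the exon from RNA-seq that included these libraries. The p-value of the total is therefore tied to that choice and gives no independent support.

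In TPM, a relative level scaled by transcript length and library total, TMEM222 summed to 19.9, 17.8 and 22.0 in shCtrl and to 31.0, 27.7 and 26.1 in shPCBP1. The means were 19.9 ± 2.12 and 28.3 ± 2.52 TPM (SD, n = 3). In bulk RNA, a change in the number of cells that express the gene and a change in RNA per cell cannot be told apart.

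The gain lay in transcripts that skip the alternative exon. The 7 skipping transcripts summed to 14.1, 13.5 and 16.1 TPM in shCtrl and to 26.6, 23.5 and 21.0 TPM in shPCBP1. The groups did not overlap, and the mean level went from 14.5 ± 1.35 to 23.7 ± 2.78 TPM (SD, n = 3), a ratio of 1.63. The 2 transcripts that carry the exon summed to 3.20, 2.38 and 3.98 TPM in shCtrl and to 2.53, 2.50 and 2.81 TPM in shPCBP1. Here the groups overlapped, with means of 3.19 ± 0.797 and 2.61 ± 0.168 TPM (SD, n = 3) and a ratio of 0.820. The depth behind the carriers was 219 to 688 estimated counts per library in shCtrl and 220 to 285 in shPCBP1.

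**Figure D2:**
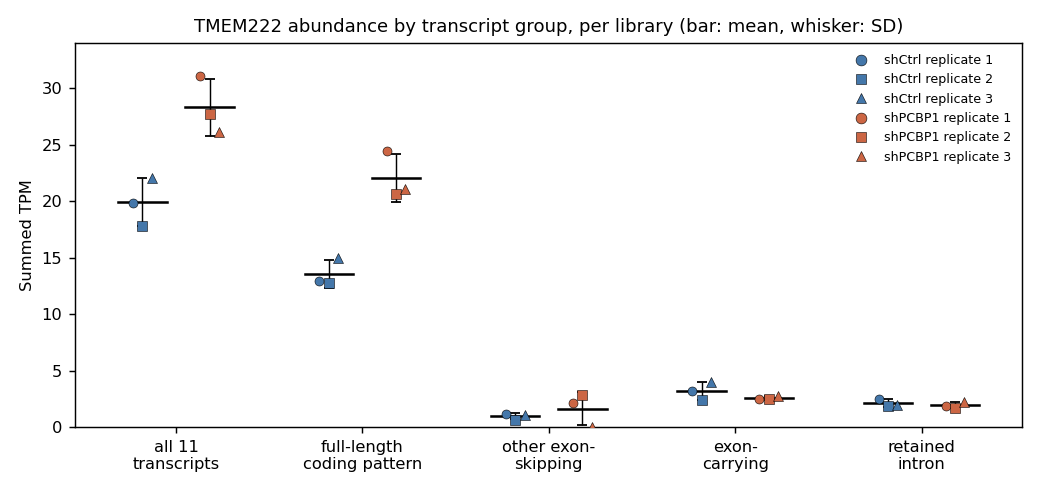
Summed TPM of TMEM222 transcript groups in each library, with points for libraries, horizontal bars for means and whiskers for the SD of 3 libraries. The total and the full-length coding pattern are higher in every shPCBP1 library, while exon-carrying and retained-intron transcripts overlap between the groups.

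Exon inclusion was then expressed as a share. The PSI of the alternative exon, the TPM of carriers over carriers and skippers, was 18.5%, 15.0% and 19.9% in shCtrl and 8.69%, 9.63% and 11.8% in shPCBP1. Every shPCBP1 library was below every shCtrl library, and the means were 17.8% ± 2.48 and 10.0% ± 1.57 (SD, n = 3), a difference of -7.76 points. No test is given for this difference, because the study picked the exon from RNA-seq that included these libraries, and the share is therefore a description. The non-overlap can also depend on the division of reads between TMEM222-207, a skipper, and TMEM222-208, a carrier, which share an exon of 88 bases. They were at 1.50 and 0 TPM in shPCBP1 replicate 2, and at 0 and 0.760 TPM in shCtrl replicate 2. The uncertainty of this division was not measured. Of 35632 annotated cassette exon events, 4.1% had groups that did not overlap and a mean share more than 5 points lower in shPCBP1, and 10.4% had a difference at least as negative as that of TMEM222. TMEM222 is one of the former, and nothing is read from this, given how the exon was picked. The median difference over all events was 0.

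Since the share depends on both forms, each was held in turn at its control mean. With carriers at their shCtrl mean and skippers at their shPCBP1 mean, the share would be 11.9%. With skippers at their shCtrl mean and carriers at their shPCBP1 mean, it would be 15.2%. The shares of the group means themselves were 18.0% and 9.93%. On these means the first substitution moved the share further than the second. This is arithmetic on group means without their spread, and the carriers overlapped between the groups. The cause of the lower share was not tested. From steady-state levels, splicing, decay and synthesis cannot be told apart.

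**Figure D3:**
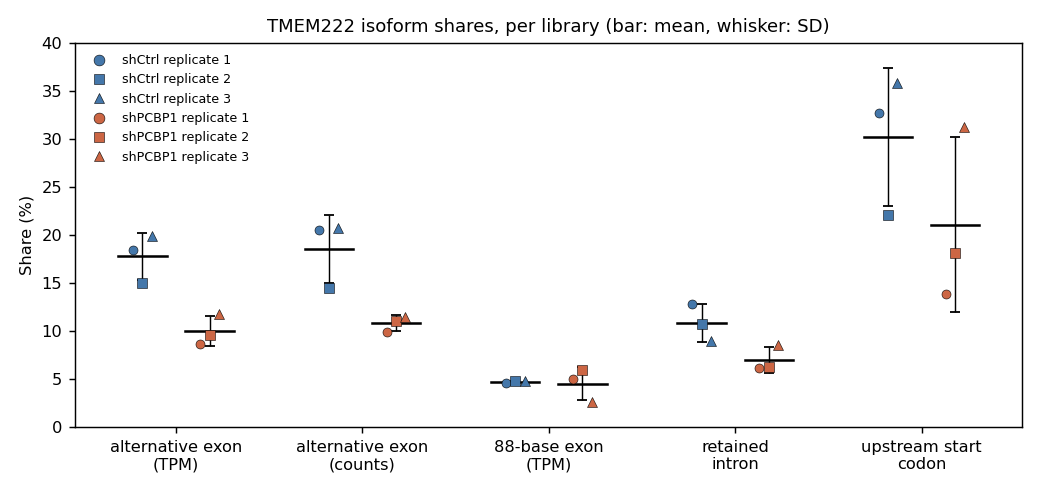
Shares within TMEM222 in percent for each library, with means as bars and SD as whiskers (3 libraries per group). The alternative exon is lower in all shPCBP1 libraries by TPM and by estimated counts, whereas the 88-base exon and the upstream start codon overlap between the groups.

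The gene has other annotated cassette exons. An exon of 88 bases (chr1:27334667-27334754), found in the NMD transcripts TMEM222-207 and TMEM222-208, had a share of 4.63%, 4.77% and 4.84% in shCtrl and of 5.00%, 5.95% and 2.64% in shPCBP1. Its groups overlapped, with a mean difference of -0.22 points. An exon of 75 bases (chr1:27333361-27333435) belongs to TMEM222-209 and was listed at 0 in every library.

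Next, the transcripts were ordered by what they encode. The full-length coding mRNA is spliced the same way in TMEM222-201, TMEM222-210 and TMEM222-211, which share every intron and differ at their ends. This splice pattern summed to 12.9, 12.8 and 14.9 TPM in shCtrl and to 24.5, 20.6 and 21.0 TPM in shPCBP1. All shPCBP1 libraries were above all shCtrl libraries, at means of 22.0 ± 2.10 and 13.6 ± 1.21 TPM (SD, n = 3). In a fit over 86186 splice patterns, run after the values were seen, its log2 fold change was 0.71 with an edgeR quasi-likelihood adjusted p of 0.0565, just short of the threshold, in a fit that called 0.55% of patterns higher. DESeq2 on the same merged table gave 0.72 with an adjusted p of 1.30e-07, in a fit that called 5.79% of patterns higher. Over its alternatives the adjusted p ran from 1.30e-07 to 0.267, and the call thus depended on the test. This pattern and TMEM222-210 hold most of the skipping TPM, the other term of the share by which the study picked the exon. Their p-values are therefore tied to that choice and give no independent support.

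TMEM222-210 (ENST00000608611.5) was the most abundant transcript. Its level was 8.69, 9.97 and 9.59 TPM in shCtrl and 21.1, 16.9 and 14.5 TPM in shPCBP1. The groups did not overlap, and the mean went from 9.42 ± 0.655 to 17.5 ± 3.34 TPM (SD, n = 3). Its log2 fold change over counts was 0.91 with an edgeR adjusted p of 0.0657, and DESeq2 gave 0.93 with an adjusted p of 6.92e-07, the lowest over its alternatives, whose highest was 0.306. TMEM222-201 (ENST00000374076.9), the reference isoform with the longer N terminus, had 4.22, 2.83 and 4.79 TPM in shCtrl and 3.12, 2.63 and 6.58 TPM in shPCBP1. Its groups overlapped, with means of 3.95 ± 1.01 and 4.11 ± 2.15 TPM (SD, n = 3) and an edgeR adjusted p of 0.977. TMEM222-211, a further form with the upstream start codon, was at 0, 0 and 0.559 TPM in shCtrl and at 0.273, 1.1 and 0 TPM in shPCBP1.

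The upstream start codon therefore accounted for 32.7%, 22.1% and 35.8% of the full-length pattern in shCtrl and for 13.9%, 18.1% and 31.3% in shPCBP1. The groups overlapped, at 30.2% ± 7.19 and 21.1% ± 9.09 (SD, n = 3). These transcripts are the same but for their first bases, so most reads fit both, and Salmon's uncertainty in dividing such reads between them does not enter the tests.

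**Figure D4:**
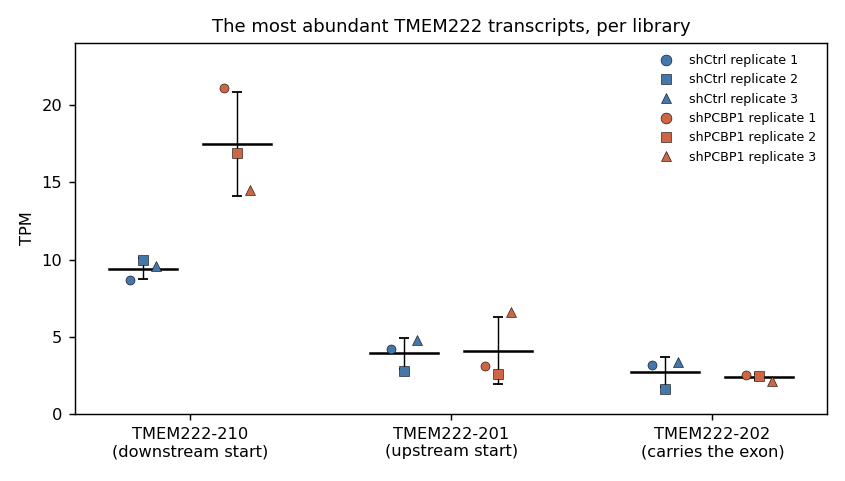
TPM of the 3 most abundant TMEM222 transcripts in each library, with means as bars and SD as whiskers (3 libraries per group). TMEM222-210 lies between 8.69 and 9.97 in shCtrl and between 14.5 and 21.1 in shPCBP1, while the other transcripts overlap.

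The NMD transcripts as a class did not follow the coding ones in level. TMEM222-202 (ENST00000464720.5), the main carrier of the exon, had 3.20, 1.62 and 3.41 TPM in shCtrl and 2.53, 2.50 and 2.16 TPM in shPCBP1, within the control range. TMEM222-208, which carries both the alternative and the 88-base exon, was at 0, 0.760 and 0.572 TPM in shCtrl and at 0, 0 and 0.646 TPM in shPCBP1. TMEM222-207, whose stop lies 63 bases ahead of the last junction, was at 0.820, 0 and 0.396 TPM in shCtrl and at 1.45, 1.50 and 0 TPM in shPCBP1. A transcript listed at 0 can be a failed estimate here, since TMEM222-207 was at 0 in libraries where TMEM222-208 was not. The 3 NMD transcripts summed to a mean of 3.59 ± 1.06 TPM in shCtrl and 3.60 ± 0.685 TPM in shPCBP1 (SD, n = 3).

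Retained-intron transcripts start downstream of the alternative exon and encode no annotated protein. TMEM222-205 was at 1.78, 1.16 and 1.30 TPM in shCtrl and at 1.31, 1.18 and 1.63 TPM in shPCBP1, with overlapping groups. TMEM222-206 was at 0.769, 0.749 and 0.665 TPM in shCtrl and at 0.596, 0.573 and 0.603 TPM in shPCBP1. All its shPCBP1 values were below its shCtrl values, with an edgeR log2 fold change of -0.29 that did not pass the test (adjusted p 0.679).

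The remaining coding transcripts were rare. TMEM222-203, which ends within an intron of the full-length form, was at 0.389, 0.673 and 0.614 TPM in shCtrl and at 0.692, 1.15 and 0 TPM in shPCBP1. TMEM222-204 was at or under 0.186 TPM in every library, and TMEM222-209 was listed at 0 throughout, so neither passed the filter of at least 10 counts in at least 3 libraries. Of the 7 transcripts without the exon that were tested, edgeR called 0, with 1 at an unadjusted p under 0.05, and DESeq2 called 1, TMEM222-210. Over the 86551 transcripts of that fit, edgeR called 0.528% higher and 0.671% lower. DESeq2 called 5.73% of the 86165 transcripts it tested higher.

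By annotated type, protein-coding transcripts made up 67.0%, 75.8% and 71.2% of TMEM222 TPM in shCtrl and 81.0%, 79.2% and 80.7% in shPCBP1. The groups did not overlap, and the mean share was 9.0 points higher in shPCBP1 (80.3% ± 0.945 against 71.3% ± 4.43, SD, n = 3). All protein-coding transcripts skip the alternative exon, so this share moves with the exon share. It was given no test and is not a separate result. NMD transcripts made up 20.2%, 13.4% and 19.9% in shCtrl and 12.8%, 14.4% and 10.8% in shPCBP1, where the groups overlapped. Retained-intron transcripts made up 12.8%, 10.8% and 8.95% in shCtrl and 6.15%, 6.33% and 8.57% in shPCBP1, lower in every shPCBP1 library. Their summed level overlapped between groups, at 2.14 ± 0.351 and 1.97 ± 0.245 TPM (SD, n = 3). The 3 shares sum to the whole, so a higher coding share entails a lower share elsewhere.

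Genes of the surrounding pathways were then described. Among the poly-C-binding KH proteins (PCBP1 to PCBP4 and HNRNPK), relatives that bind C-rich RNA, 3 fell, among them the KD target PCBP1 itself, and 1 rose, beside 13.5% of all genes called lower and 17.7% called higher. PCBP2 fell by 0.24 on the log2 scale, PCBP4, whose estimate is uncertain because ABHD14B overlaps it on the same strand, fell by 0.55 and HNRNPK rose by 0.14. PCBP3 was near the detection limit and received no adjusted p. These values are gene totals from the fit that gave the rise of TMEM222.

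Of 18 NMD factors, 11 rose, 1 fell and 6 did not pass the test, beside the 17.7% of all genes called higher and 13.5% called lower. The median log2 fold change of these factors was 0.16. It was -0.02 over all 28848 genes fitted, which include genes that received no adjusted p. UPF1, the central helicase, rose by 0.24 (SE 0.0416, DESeq2 adjusted p 2.28e-07), SMG5, an adaptor that recruits decay enzymes, rose by 0.31, and SMG1, the kinase of UPF1, rose by 0.19, an uncertain value because near-identical copies of SMG1 exist. Of the exon junction complex, RBM8A rose by 0.29, EIF4A3 by 0.24 and CASC3 by 0.19. UPF3A, a paralog of the NMD factor UPF3B, fell by 0.16, and UPF2 had a log2 fold change of 0.08 that did not pass. The calls of UPF3A, SMG5, SMG8 and SMG9 were among those lost with transcript length offsets, at DESeq2 adjusted p of 0.337, 0.141, 0.0696 and 0.104. With these offsets the log2 fold change was 0.12 for SMG5, 0.11 for SMG1 (DESeq2 adjusted p 0.0483), 0.13 for SMG9 (0.25 without them) and 0.20 for PNRC2 (0.11 without them). SMG8 and PNRC2 did not pass in edgeR (adjusted p 0.0634 and 0.0649). Leaving out 1 library ended the call of UPF3A (DESeq2 adjusted p 0.0643 without shCtrl replicate 1 and 0.0609 without shPCBP1 replicate 2), of SMG8 (0.0723 and 0.108 without shCtrl replicates 1 and 2, and 0.155 without shPCBP1 replicate 2) and of PNRC2 (0.0510 without shPCBP1 replicate 2).

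Of 9 listed neighbours of TMEM222 on chromosome 1, 1 rose, 2 fell, 3 did not pass the test and 3 received no adjusted p. Over all genes tested, 17.7% were called higher and 13.5% lower, and nothing is read from the neighbour counts. Within 100000 bases lie 7 protein-coding neighbours, and a pseudogene and a small nuclear RNA gene overlap TMEM222 itself. WASF2, an activator of actin assembly, rose by 0.18. SYTL1, which lies 5620 bases downstream and acts in vesicle transport, fell by 0.81, and MAP3K6, a stress kinase, fell by 0.39. WDTC1, upstream on the same strand, had a log2 fold change of -0.0085 (DESeq2 adjusted p 0.922). ACTG1P20, a processed pseudogene on the same strand inside an intron of TMEM222, had 45.6 to 71.6 normalized counts in shCtrl and 43.9 to 64.1 in shPCBP1 and did not pass the test, and reads from unspliced TMEM222 RNA there cannot be told apart from it. GPR3 did not pass either, and FCN3, CD164L2 and RNU6-48P received no adjusted p.

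**Figure D5:**
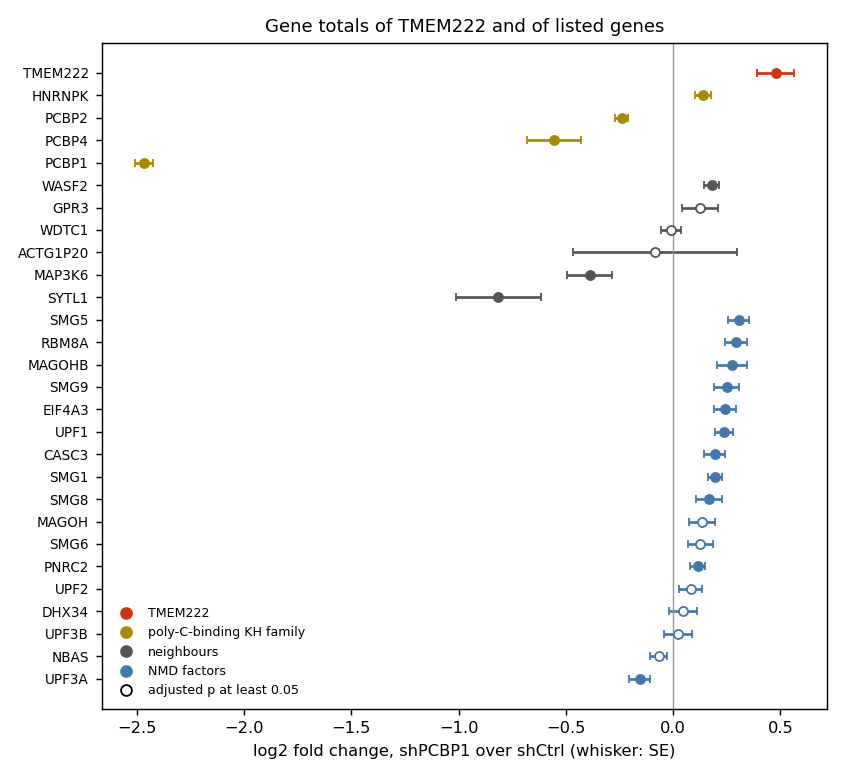
Log2 fold change of gene totals, shPCBP1 over shCtrl, with the standard error as whiskers, for TMEM222 and genes of the KH family, neighbour and NMD factor lists. Filled points passed an adjusted p under 0.05. TMEM222, at 0.48, lies to the right of every other gene shown.

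The genes whose normalized counts followed TMEM222 most closely over the 6 libraries, among genes averaging at least 100, were ARF1 (Pearson r 0.998), COX15 (0.998), CAPRIN1 (0.997), SETD1A (0.997) and EPB41 (0.997). The 6 points share the division into shCtrl and shPCBP1, so these values describe likeness and carry no test. Their changes were small beside that of TMEM222, with log2 fold changes from 0.08 in ARF1 to 0.23 in SETD1A.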

How the data were processed

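Poly-A RNA of 6 libraries (150 cycles, paired end) was quantified by the authors with Salmon 1.10.2. The deposited estimated counts are not normalized, and the deposited TPM values are scaled on effective transcript length, which the authors' files also give. The annotation behind the index is not given in the sources used here. Of 252045 transcripts, 251612 matched GENCODE release 44, and the rest held at most 0.147% of counts. Counts were summed per gene and then rounded, and genes with at least 10 summed counts entered DESeq2 1.42.0 (Wald test, group as the only term, Benjamini-Hochberg adjustment). Transcripts with at least 10 rounded counts in at least 3 libraries entered edgeR 4.0.16 (quasi-likelihood test, TMM factors), in R 4.3.3. P-values were adjusted over all features tested in a fit, and those that DESeq2 set to missing stayed missing. Exon shares rest on transcript estimates, since junction reads were not used here. An event entered the background if either its including or its skipping form averaged at least 10 counts. Its forms together also had to be detected in every library. Transcripts averaging at least 0.5 TPM are given by library. Fold changes and sums of rare transcripts carry wide error at this depth. Statements that groups of levels do not overlap are descriptions. The share of all genes or transcripts whose groups do not overlap is not given here. Listed genes were the KH family, NMD factors, neighbours within 100000 bases, marker genes and the 5 genes most alike. Of the listed genes, 2 enter the counts and sums but are not reported individually here. Members, lists and rules were chosen with earlier results of these data known. Alternatives covered other tests, scalings, filters, a replicate block, other share definitions and leaving out each library.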

Additional observations from a re-analysis of the deposited data

How the results depend on the processing

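The rise of the TMEM222 total passed under every alternative that has a test, with log2 fold changes from 0.46 (edgeR) to 0.53 (length offsets) and from 0.39 to 0.55 when 1 library was left out. The exon share difference stayed between -9.13 and -6.55 points and the protein-coding share difference between 6.82 and 11.2 points. The count of TMEM222 transcripts called was 0 with edgeR and 1 with DESeq2, and the full-length splice pattern, a fit added after seeing the data, passed with DESeq2 (0.72) but with edgeR had adjusted p between 0.0752 and 0.184 without 1 library (log2 from 0.62 to 0.80). The count of all transcripts called was 1038 and became 9241 with DESeq2, 683 with a summed count filter of 10, from 72 to 338 without 1 library, and 0 in edgeR with a replicate block (8959 at an unadjusted p under 0.05). The cause was not tested. Samples with the same replicate number did not deviate together (correlations 0.094, -0.0203 and -0.105). Whether equal numbers mark a shared culture is not stated in the sources used here. With the replicate block the log2 fold change of the gene total was 0.48. The replicate block turned TMEM222-201 to -0.010 and TMEM222-203 to -0.58. Leaving out 1 library spanned 0 for TMEM222-201 (-0.43 to 0.30), TMEM222-203 (-0.64 to 0.74), TMEM222-205 (-0.18 to 0.16) and WDTC1 (-0.038 to 0.021). Depth limits the rare transcripts, several of which were at 0 in some libraries.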
